A study of Arabidopsis thaliana with 6 samples.

Results

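Sense small RNAs of the 5.8S ribosomal RNA (rRNA) gene and its flanking spacers were described in leaves of the rdr1 mutant and of wild-type (WT) Arabidopsis thaliana, with 3 libraries of each. Members were the listed sequences that match the plus strand of chromosome 2 (TAIR10) without mismatch and whose midpoint lies in a window from 5514 to the base before 6134. The window holds the first internal transcribed spacer (5514 to 5781), the second one (from 5946 on) and, between them, the 5.8S gene AT2G01020. Of 18124 listed sequences 436 were members, and each matched the genome at 2 places, this unit and the copy on chromosome 3 (5.8S gene AT3G41979, 14199753 to 14199916), so that the copies cannot be told apart. Both groups were untreated leaf samples from plants grown under 16 h of daylight at 22 °C. The labels give neither the rdr1 allele nor separate plants for the libraries of a group, so p-values measure only how these samples vary, and that variation may be technical. The RDR1 gene (AT1G14790) matched 0 listed sequences, so the genotype could not be checked here, and no mRNA was measured by which the tissue could be checked.

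RDR1 is an RNA-dependent RNA polymerase, which makes a second strand on an RNA template, and Dicer-like enzymes cut the duplex into small interfering RNAs. The 5.8S rRNA is a short RNA of the large ribosomal subunit, where it base-pairs with 25S rRNA. RNA polymerase I transcribes 18S, 5.8S and 25S rRNA as a single precursor, and the spacers between them are cut off and degraded. Sense fragments have the strand of the rRNA itself and can be pieces of it, while antisense sequences need a copied or oppositely transcribed strand.

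The sequences below show where the small RNAs lie, since the position of their ends is the main pattern. The first is the 5.8S gene from the base before it to its last base but one (chr2:5781-5944, plus strand, TAIR10.1 reference genome). Its capitals mark the most abundant member of over 24 nt at each end. In the 5′ end members that follow, capitals mark bases inside the annotated gene. In the 3′ end members, capitals mark the stretch held by the 4 members shown.
5.8S gene: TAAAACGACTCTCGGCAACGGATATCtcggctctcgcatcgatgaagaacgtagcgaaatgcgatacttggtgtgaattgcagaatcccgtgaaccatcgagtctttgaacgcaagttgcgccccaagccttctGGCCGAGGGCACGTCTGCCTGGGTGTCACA
5′ end, chr2:5781-5806: tAAAACGACTCTCGGCAACGGATATC
5′ end, chr2:5781-5807: tAAAACGACTCTCGGCAACGGATATCT
5′ end, chr2:5781-5800: tAAAACGACTCTCGGCAACG
5′ end, chr2:5784-5802: AACGACTCTCGGCAACGGA
3′ end, chr2:5914-5944: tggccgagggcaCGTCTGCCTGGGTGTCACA
3′ end, chr2:5915-5944: ggccgagggcaCGTCTGCCTGGGTGTCACA
3′ end, chr2:5925-5944: aCGTCTGCCTGGGTGTCACA
3′ end, chr2:5926-5944: CGTCTGCCTGGGTGTCACA

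Values are the authors' normalised reads. The smallest value above 0 in a library was taken as 1 read, worth 0.804 to 1.71. Library totals were inferred from it, with the scale set here to 8000000 reads per library, and came to 4668411 to 9955668 reads. The labels do not say which reads such a total counts. Members held between 70615 and 187313 reads in a library. The libraries differed in fragment length in both groups. The 28 to 34 nt share of the listed sum was 4.87%, 15.7% and 17.7% in rdr1 replicates 1 to 3, against 35.3%, 26.2% and 9.94% in WT replicates 1 to 3. The 17 to 19 nt share was 35.2% in rdr1 replicate 1, against 5.72% in WT replicate 1.

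Sense small RNAs of the window came from the 5.8S gene, and mostly from its ends. A member was assigned to a gene end when its first base lay within 2 nt of the annotated first base or its last base within 2 nt of the annotated last base. By this rule 49 members were 5′ end, 30 were 3′ end and 347 were internal, while 10 had their midpoint in the first spacer and 0 in the second. The 79 end sequences held 87.4% ± 1.56 of the members' sum in rdr1 and 88.2% ± 1.24 in WT (SD, n = 3 each). The 10 most abundant members, 7 of the 3′ end and 3 of the 5′ end, held 56.3% ± 0.564 in rdr1 and 56.9% ± 2.20 in WT. Members took 6.49%, 5.68% and 6.03% of the listed sum in rdr1 replicates 1 to 3, against 7.57%, 6.74% and 4.94% in WT replicates 1 to 3. The rdr1 values lay inside the WT range.

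**Figure D1:**
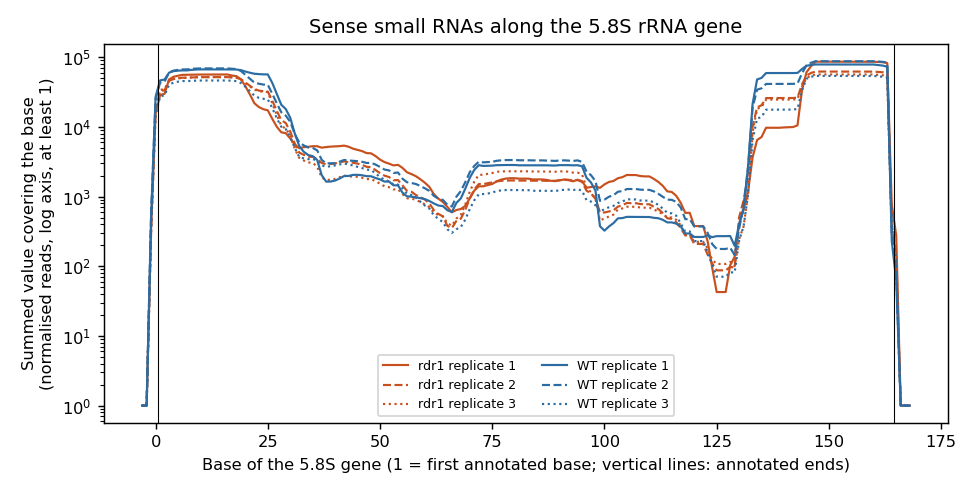
Summed value of the members that cover each base of the 5.8S gene (log axis, bases with no member drawn at 1) in 3 rdr1 and 3 WT libraries, with vertical lines at the annotated ends. Coverage is high over both ends, dips around base 129 and stops within 2 nt of each annotated end in every library.

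Coverage was far lower in the middle of the gene than near its ends. It was highest at base 148 of the gene, with 86550.5, 62377 and 56718 in rdr1 replicates 1 to 3 and 78872, 87853.5 and 54019.5 in WT replicates 1 to 3. Near the 5′ end it peaked at base 15, at 51923 to 56673 in rdr1 and 46460.4 to 69334 in WT. At base 129, the position with the lowest mean over the 6 libraries among bases 30 to 130, it was 95.96 to 137 in rdr1 and 81.2 to 196 in WT. That minimum lies close to the 3′ plateau. Coverage at base 82, near the middle of the gene, was 1698 to 2305 in rdr1 and 1237 to 3323 in WT. The profile thus had a high plateau at each end in each of the 6 libraries.

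The sums by class did not differ between rdr1 and WT beyond the spread of the libraries. Exact two-sided permutation tests of the 5 sums (n = 3 each), which with 3 against 3 cannot go below p = 0.1, gave 0.4 to 1, and 1 after Benjamini-Hochberg adjustment. The 5′ end sum was 48031, 45927 and 46191 in rdr1 replicates 1 to 3, against 60132, 60541 and 40469 in WT replicates 1 to 3. It averaged 46717 ± 1146 in rdr1 and 53714 ± 11472 in WT (log2 ratio of means -0.20). The 3 rdr1 libraries lay close together, inside the WT range. The 3′ end sum was 84911, 60930.4 and 55172 in rdr1, against 75988.5, 86011 and 52497 in WT, in the same order of replicates. It averaged 67004 ± 15773 in rdr1 and 71499 ± 17202 in WT (log2 ratio -0.09), and the groups overlapped. With median of ratios scaling the log2 ratios were -0.74 for the 5′ end, -0.68 for the 3′ end and -0.69 for all members, whose ratio on the deposited scale was -0.12 (exact permutation p = 0.2 to 0.4, n = 3 each). The internal sum averaged 16358 ± 4812 in rdr1 and 16287 ± 3254 in WT. In bulk leaf RNA, fewer cells with a small RNA and less of it per cell cannot be told apart.

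**Figure D2:**
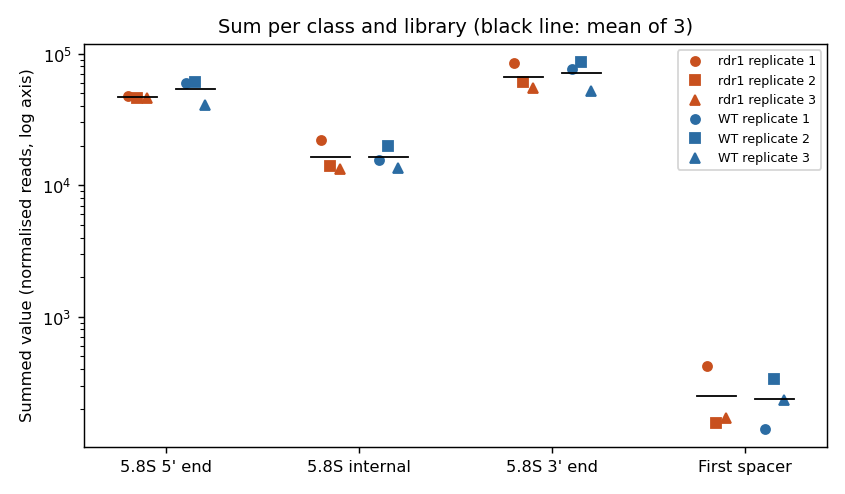
Summed value of the members of each class (log axis) in each library, rdr1 left of WT, with symbols for replicates and a black line at the mean of 3. The groups overlap in each class, and the first spacer lies far below the 5.8S classes.

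The balance of the ends did not differ between the groups beyond the spread of the libraries either. The log2 ratio of the 5′ end to the 3′ end sum, which does not depend on how a library is scaled, was -0.82, -0.41 and -0.26 in rdr1 replicates 1 to 3, against -0.34, -0.51 and -0.38 in WT replicates 1 to 3. Its means differed by -0.09 (exact permutation p = 0.8, n = 3 each). The 3′ end sum exceeded the 5′ end sum in each of the 6 libraries.

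At the 5′ end, members began at 3 main positions. Those beginning at 5781, 1 nt before the annotated gene, made up 31.3% to 41.3% of the 5′ end sum in the rdr1 libraries and 35.4% to 44.1% in the WT libraries. Those beginning at the annotated first base made up 30.4% ± 2.54 in rdr1 and 31.3% ± 1.37 in WT (SD, n = 3 each). Those beginning at 5784 made up 29.4% ± 7.09 in rdr1 and 25.4% ± 4.82 in WT, while 5780 held 0.694% to 0.956% and 5783 held 2.17% to 2.91% in the 6 libraries.

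The 3′ end was sharper than the 5′ end. Members ending at 5944, 1 nt before the annotated last base, made up 96.5% ± 0.0622 of the 3′ end sum in rdr1 and 96.4% ± 0.502 in WT. Those ending at the annotated last base made up 0.461% ± 0.111 in rdr1 and 0.341% ± 0.163 in WT. The last base covered by any member was 5946. Most of the 3′ end sum thus stopped 1 nt before the annotated last base, in rdr1 and in WT, although by count only 11 of the 30 sequences ended there.

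Both ends gave fragments of 2 sizes with a gap between them. At the 5′ end, 19 members were of 17 to 21 nt and ended at 5796 to 5803, and 30 were of 25 to 34 nt and ended at 5804 to 5814. At the 3′ end, 17 members were of 17 to 21 nt and began at 5924 to 5929, and 13 were of 27 to 34 nt and began at 5911 to 5917. No listed end member had a length of 22, 23 or 24 nt. Members of 21 to 24 nt, the size range of Dicer-like products, were 1 at the 5′ end and 2 at the 3′ end. They held 0.131% ± 0.0400 of the 5′ end sum in rdr1 and 0.112% ± 0.0571 in WT, and 0.246% ± 0.0381 of the 3′ end sum in rdr1 and 0.182% ± 0.117 in WT. Sequences that are not in the table were not analysed here, so the gap is one among listed sequences.

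**Figure D3:**
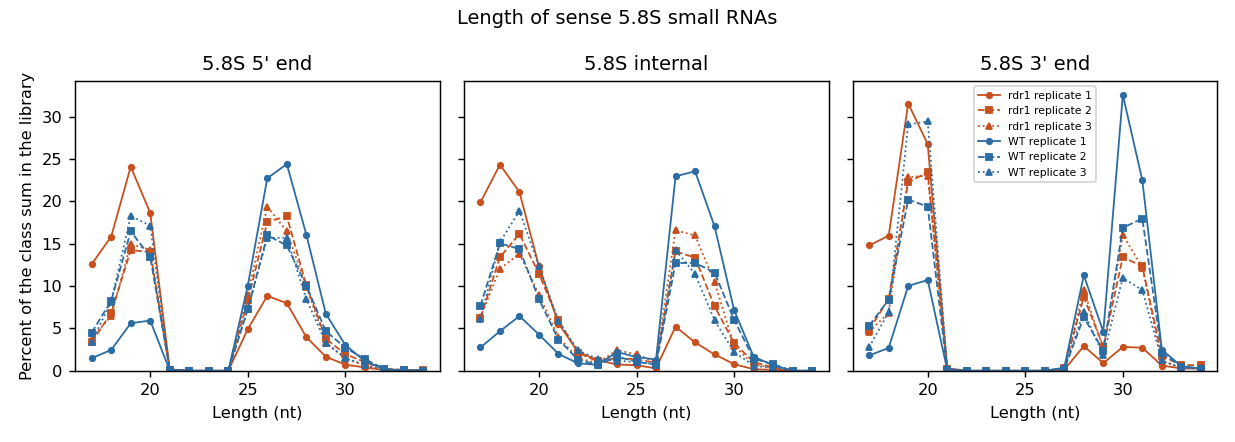
Percent of the sum of each 5.8S class found at each length from 17 to 34 nt, per library. Each class has a peak at 18 to 20 nt and a second one from 26 to 31 nt, with almost nothing at 22 to 24 nt at the gene ends.

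The balance of long and short sizes varied widely among the libraries of each group, and the groups overlapped. At the 3′ end, members of 25 to 34 nt over those of 17 to 24 nt gave ratios of 0.119, 0.686 and 0.737 in rdr1 replicates 1 to 3, against 2.94, 0.872 and 0.458 in WT replicates 1 to 3. At the 5′ end the ratios were 0.401, 1.59 and 1.52 in rdr1, against 5.43, 1.33 and 1.12 in WT. The same ratio over the listed sequences that are not members was 0.125, 0.368 and 0.436 in rdr1, against 1.26, 0.583 and 0.250 in WT. WT replicate 1 was highest and rdr1 replicate 1 lowest by each of these, and the other 4 libraries lay between them. Of 20 shares by class and length band 2, the first spacer at 25 to 34 nt, held no sequence and could not be tested. Exact permutation tests of the other 18 (n = 3 each) gave p-values of 0.2 to 0.7, and of at least 0.635 after adjustment over these 18. The part of whole-library fragment length in the 5.8S sizes was not tested.

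Among the most abundant members, single sequences showed the same split. The 19-nt sequence at chr2:5926-5944 had 26151, 13233 and 12347 in rdr1 replicates 1 to 3, against 7438, 16968 and 14902 in WT replicates 1 to 3. It had the highest mean of the 436 members, and its log2 fold change was 0.39 (SE 0.82). The 20-nt sequence at chr2:5925-5944 had 22123, 13922 and 12419 in rdr1, against 7944, 16295.5 and 15080.5 in WT, a log2 fold change of 0.32 (SE 0.82). In both, rdr1 replicate 1 was the highest and WT replicate 1 the lowest library. The 26-nt 5′ end sequence at chr2:5781-5806 had 2398, 4749 and 5912 in rdr1, against 8212, 6305 and 3625 in WT, a log2 fold change of -0.49 (SE 0.71). Its 27-nt neighbour at chr2:5781-5807 had 1656, 4056 and 4132 in rdr1, against 7921, 4947 and 2960 in WT (-0.69, SE 0.69). Here the order of those 2 libraries was reversed. Fold changes are on the scale of log2(value + 1), and the limma adjusted p was at least 0.753 for each of these.

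Internal members were many and low. The 347 sequences had a median mean of 21.9 per sequence, against 337 for the 5′ end and 237 for the 3′ end. Members that began or ended within 5 nt of a gene end, 39 of them, still held 44.5% ± 1.43 of the internal sum in rdr1 and 45.9% ± 3.99 in WT. The 2 most abundant internal members began at 5785, just inside the 5′ end class. That of 18 nt (chr2:5785-5802) had 1693, 637 and 673 in rdr1 replicates 1 to 3, against 319, 1227 and 825 in WT replicates 1 to 3 (log2 fold change 0.39). That of 27 nt (chr2:5785-5811) had 480.4, 761 and 723 in rdr1, against 1156, 853 and 679 in WT (-0.45). The groups overlapped in both. By midpoint, the first 41 bases of the gene held 9466 ± 2960 of the internal sum in rdr1 and 9149 ± 1741 in WT, and the last 41 held 1584 ± 132 in rdr1 and 2096 ± 701 in WT. Sequences of 21 to 24 nt made up 9.77% ± 0.958 of the internal sum in rdr1 and 8.02% ± 2.62 in WT.

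The first spacer gave few and scarce sense sequences, and they fall into 2 kinds. Of its 10 members, 8 crossed the 3′ end of 18S rRNA (5513), beginning at 5506 to 5510 and ending at 5523 to 5526, and 2 lay wholly within the spacer. The crossing member shown is the most abundant one, and capitals mark bases of the spacer in these 3 sequences.
Across the 18S end, chr2:5507-5525: atcattgTCGATACCTGTC
First spacer, chr2:5518-5540: TACCTGTCCAAAACAGAACGACC
First spacer, chr2:5689-5712: ACGAAAAGTGTCAAGGAACATGCA

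The 8 crossing members, all of 17 to 19 nt, summed to 403, 149 and 120.0 in rdr1 replicates 1 to 3, against 52.4, 252 and 122 in WT replicates 1 to 3. The groups overlapped, with rdr1 replicate 1 the highest and WT replicate 1 the lowest. By comparison, the sense sequences that ended within 2 nt of the 18S end, 27 in number, summed to 35439 ± 14778 in rdr1 and 31249 ± 8949 in WT. The most abundant crossing member, of 19 nt (chr2:5507-5525), had 87.8, 51.4 and 48.5 in rdr1, against 21.8, 88.1 and 37.8 in WT (log2 fold change 0.52, SE 0.74).

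The 23-nt sequence at chr2:5518-5540 was the 1 member of 436 that passed the limma test. Of all sequences tested 0.216% passed in either direction, 0.200% lower and 0.0166% higher in rdr1. It had 3.76, 3.43 and 1.21 in rdr1 replicates 1 to 3, or 6 reads in all, against 68.4, 48.9 and 89.2 in WT replicates 1 to 3, or 213 reads. The groups did not overlap, and it entered the list, which needs 20.1 in a library, only through WT. In rdr1 it fell by 4.24 on the log2 scale (SE 0.97), and limma gave an adjusted p of 0.00986 across the 18043 sequences. The call was lost with any WT library, rdr1 replicate 2 or rdr1 replicate 3 left out, with limma adjusted p-values of 0.0660 to 0.418 and log2 fold changes of -4.46 to -3.89. The other member wholly in the spacer, of 24 nt (chr2:5689-5712), is named although the rule for naming members did not pick it. It had 17.6, 3.43 and 48.5 in rdr1, against 20.4, 32.9 and 22.5 in WT, and the groups overlapped.

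Antisense sequences faced the 23-nt member and not the 24-nt one. The 8 listed antisense sequences that overlap chr2:5518-5540 lay between 5512 and 5536 and summed to 5.02, 5.14 and 1.21 in rdr1 replicates 1 to 3, against 304, 646 and 531 in WT replicates 1 to 3. They were low in the same 3 libraries as the sense member, and 0 listed antisense sequences overlapped chr2:5689-5712. A sequence is listed only if it reaches 20.1 in a library, and the 23-nt member and these 8 did so only in WT. Their shared low level in rdr1 is therefore no independent support for each other. The 8 faced the 23-nt member over 14 to 19 bases, and 6 of the 8 left 7 to 9 unpaired 3′ bases on the sense strand. The most abundant of them, of 20 nt (chr2:5512-5531), had 0 in each rdr1 library, against 111, 271 and 237 in WT replicates 1 to 3, and faced 14 bases with 9 unpaired 3′ bases on the sense strand and 6 on its own. The pair shown was picked after the 8 were seen, as the longest of those that leave 2 unpaired 3′ bases on the antisense strand. Each strand is written 5′ to 3′, with facing bases in capitals.
Sense, chr2:5518-5540: TACCTGTCCAAAACAGAACgacc
Antisense, chr2:5516-5536: GTTCTGTTTTGGACAGGTAtc

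These 2 sequences face each other over 19 bases, with 4 unpaired 3′ bases on the sense strand. The 2 unpaired 3′ bases on the antisense strand follow from the choice of the pair and are no finding. The antisense one, of 21 nt, had 1.25, 0 and 0 in rdr1 replicates 1 to 3, against 50.9, 70.3 and 59.5 in WT replicates 1 to 3. The antisense groups did not overlap. Among listed sequences the strands differed in the second spacer: 0 sense members had their midpoint there, while 23 antisense sequences did. These 23 summed to 21.3, 23.99 and 23.0 in rdr1 replicates 1 to 3, against 2117, 5980 and 3315 in WT replicates 1 to 3. In each rdr1 library all 23 together were only just above the value that a single sequence needs to be listed. Nearly all of them were therefore listed through WT alone, so the size of this gap depends in part on the listing.

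**Figure D4:**
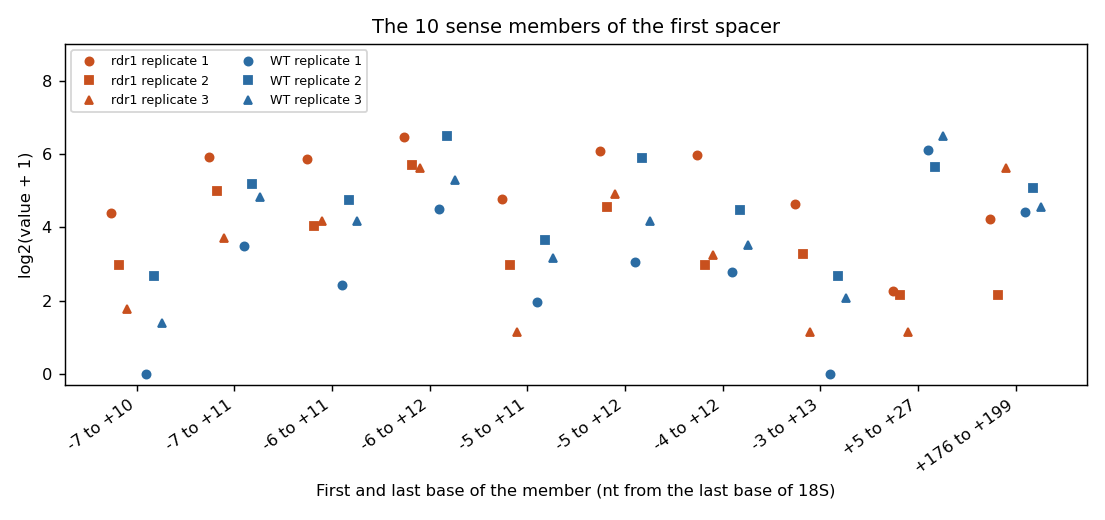
Level of each of the 10 first-spacer members as log2(value + 1) in each library, rdr1 left of WT, with the position of the first and last base in nt from the last base of 18S rRNA. The 23-nt member at +5 to +27 is low in the 3 rdr1 libraries and high in the 3 WT libraries, while the groups overlap for the other 9.

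Across the 436 members, as across all sequences tested, few differed between rdr1 and WT. All 436 passed the filter of a mean of at least 5, and 391 were above 0 in all 6 libraries. The 1 call was the 23-nt spacer sequence, against 39 calls among the 18043 sequences tested. In the band of 20 to 24 nt, 1 of 88 members and 34 of all 5867 sequences tested were called. At an unadjusted limma p under 0.05 there were 5 of 436 members, against 442 of 18043 sequences tested (2.45%). With edgeR and DESeq2 on recovered reads, the 23-nt sequence was also the 1 member called. These fits used the same list and the same 6 libraries, so they are no independent support. Groups did not overlap for 11 members, or 2.52%, with 8 lower and 3 higher in rdr1. The share over all sequences tested was 5.29%, with 2.31% lower and 2.98% higher. The median log2 fold change was 0.42 over members and 0.47 over all sequences tested, and -0.03 and 0.01 with median of ratios scaling, so no direction is given for the members as a group.

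Fold changes differed by length, but in 3 of the 4 length bands their sign rested on 2 libraries. Of the 206 members of 17 to 19 nt, 203 had a log2 fold change above 0, with a median of 0.76 beside 0.87 for all sequences tested of these lengths. Of the 112 members of 28 to 34 nt, 109 were below 0, with a median of -0.93 beside -0.89. Members of 20 to 24 nt had a median of 0.48 beside 0.47, and those of 25 to 27 nt -0.50 beside -0.43. Without rdr1 replicate 1 and WT replicate 1 the medians changed sign in the first 3 bands. They were then -0.41 at 17 to 19 nt (173 of 206 below 0) beside -0.36 for all sequences tested, and -0.27 at 20 to 24 nt (66 of 88 below 0) beside -0.12. At 25 to 27 nt the median was 0.0663 (21 of 30 above 0) beside 0.19, and at 28 to 34 nt it was -0.15 (72 of 112 below 0) beside -0.0911.

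**Figure D5:**
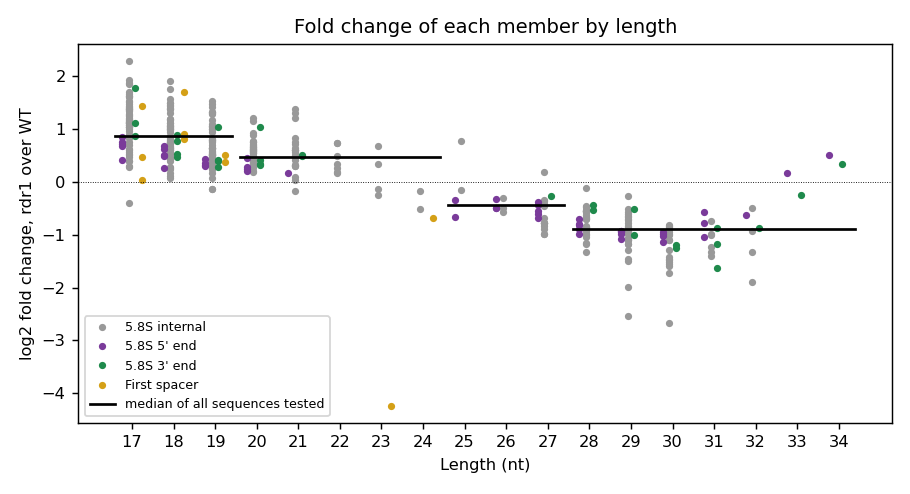
Log2 fold change (rdr1 over WT) of each member against its length, by class, with black lines at the median of all sequences tested in the bands 17 to 19, 20 to 24, 25 to 27 and 28 to 34 nt. With all 6 libraries most short members lie above 0 and most long ones below, close to the medians of all sequences tested, and the 23-nt first-spacer member stands apart at -4.24.

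The 3 other members with the smallest p were of 29 or 30 nt. That of 29 nt at chr2:5790-5818 had 5.02, 25.7 and 49.7 in rdr1 replicates 1 to 3, against 125, 88.1 and 45.0 in WT replicates 1 to 3 (log2 fold change -2.0, limma adjusted p = 0.753). That of 30 nt at chr2:5789-5818 had 22.6, 115 and 125 in rdr1, against 285, 324 and 92.4 in WT (-1.55). The 3′ end member of 30 nt at chr2:5914-5943 had 79.0, 298 and 328 in rdr1, against 948, 525 and 209.7 in WT (-1.25). The groups overlapped in these 3, and rdr1 replicate 1 was the lowest library in each. Without it their log2 fold changes were -1.13 (5790-5818), -0.77 (5789-5818) and -0.59 (5914-5943), and without WT replicate 1 too they were -0.80, -0.53 and -0.0849. After dividing by the library's sum at each length they were -1.13, -0.40 and -0.0837. Without WT replicate 1 alone the last was -0.74.

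Set beside the sense sequences of 18S rRNA (4750), the 5.8S members had a higher sum per nt and a higher share at gene ends, and beside 18S and the 25S side of the unit (7694 sequences, midpoints from 6134 on) a lower share of 21 to 24 nt. These 4 comparisons were chosen after the values were seen, so they are given as descriptions without a test. The summed value per nt of gene was 793 ± 132 for 5.8S and 135 ± 42.4 for 18S in rdr1, and 863 ± 191 for 5.8S and 121 ± 19.6 for 18S in WT. The log2 ratio averaged 2.71 ± 0.255 (SD over 6 libraries) and was above 0 in 6 of 6. Sequences within 2 nt of a gene end held 88.0% ± 1.29 of the 5.8S sum and 21.4% ± 4.74 of the 18S sum. The 18S gene is much longer, at 1808 nt, so the same 2-nt rule takes a smaller part of it and these shares are not on equal terms. The sums per nt are not on equal terms either, since the end sequences of 5.8S are divided by a much shorter gene. Internal members held only 12.4% ± 1.49 of the members' sum in rdr1 and 11.6% ± 1.17 in WT. Sums per nt without the end sequences were not compared, so a higher sum per nt is not shown for the inside of the 5.8S gene. Sequences of 21 to 24 nt held 1.28% ± 0.361 of the members' sum, against 24.9% ± 5.72 for 18S and 20.6% ± 3.13 for the 25S side, and the members' share was the lower in 6 of 6 libraries in both cases. Counted as distinct sequences the gap was smaller, at 39 of 436 members (8.94%), against 688 of 4750 (14.5%) for 18S and 1098 of 7694 (14.3%) for the 25S side. The first spacer had 0.932 ± 0.563 per nt in rdr1 and 0.881 ± 0.359 in WT, far below the 5.8S gene.

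Whether the difference between rdr1 and WT was unlike that of 18S or 25S was tested with ratios within libraries. The log2 ratio of the members' sum to that of sense 18S was -1.05, -0.98 and -0.56 in rdr1 replicates 1 to 3, against -0.41, -0.64 and -0.87 in WT replicates 1 to 3, with means that differed by -0.23 (exact permutation p = 0.3, n = 3 each). To the 25S side it was -2.06, -1.99 and -1.70 in rdr1, against -1.85, -1.88 and -1.83 in WT (difference -0.06, exact permutation p = 0.6, n = 3 each). The groups overlapped in both ratios.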

How the data were processed

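Small RNAs of 3 rdr1 and 3 WT leaf samples were sequenced as 50-nt single-end Illumina reads after TRIzol extraction and HD adapter ligation, per the labels' protocols; per the submitters' processing notes, TAIR10 was the build. The values the authors deposited are a normalised signal per distinct sequence, 1 column per library per the file headers; the sources used here do not give trimming, aligner, filters or normalisation. In each library they were whole multiples of 1 step (100% to within 0.01 of a read), so reads were recovered as values over steps. The table held 18124 sequences of 17 to 34 nt, each reaching at least 20.1 in a library. Intervals and SDs cover no bias of amplification, which was not corrected here with molecular identifiers.

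Sequences were matched exactly to TAIR10.1 (RefSeq), whose annotation holds the 18S and 5.8S genes used. Sequences whose mean reached 5 were tested two-sided in limma with a trended empirical Bayes prior on log2(value + 1), with Benjamini-Hochberg adjustment over 18043 sequences and a threshold of 0.05. Sums, shares and ratios were tested with exact permutation tests over libraries. Named members were the 2 with the highest mean per class, those called and the 3 others with the smallest p. Members and comparisons were chosen with earlier results of these data known. On simulated reads (17855 sequences, 200 changed) 0 of limma's 107 calls were false, and it found 24.5% of the 4-fold and 92.2% of the 16-fold changes. The simulated libraries shared a mean profile and a fixed dispersion, without the differences in fragment length seen here. These rates therefore do not give the error rates of the real comparison. Within a genotype, no 2 libraries agreed within sampling noise (chi-square over degrees of freedom 8.59 to 52.1). Alternatives were other pseudocounts, filters, scalings and end tolerances, each library left out, a replicate block, and edgeR and DESeq2 on recovered reads. Python 3.11.15 was used with matplotlib 3.10.9, scipy 1.17.1, pandas 2.3.3 and numpy 2.4.6, and R 4.3.3 with DESeq2 1.42.0, edgeR 4.0.16 and limma 3.58.1.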

Additional observations from a re-analysis of the deposited data

How the results depend on the processing

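Each class sum changed sign under some setting, that of the 5′ end only when limited to 20 to 24 nt. Exact permutation p-values cannot pass 0.05 at 3 against 3. As log2 ratios of rdr1 over WT, the sum of members was 0.29 at 20 to 24 nt, that of the 5′ end 0.24 and that of the 3′ end 0.31. The 3′ end was also 0.0172 after dividing by the library's sum at each length and 0.50 at an end tolerance of 0 nt. The internal sum was -0.56 with median of ratios scaling, -0.0210 with length division, -0.0615 at a tolerance of 0 nt and -0.29 without WT replicate 1 and rdr1 replicate 1. The first spacer was -0.43 with median of ratios, -0.38 with length division, -0.00229 relative to sense rRNA, -0.80 without those 2 libraries, and -1.86 both at 20 to 24 nt and for members wholly in the window. With a library left out in turn these sums ranged from -0.29 to 0.0120 (members), -0.37 to -0.11 (5′ end), -0.26 to 0.17 (internal), -0.30 to 0.0607 (3′ end) and -0.54 to 0.41 (first spacer). The ratio of 5′ to 3′ end ranged from -0.21 to 0.0745 and the ratios to 18S and 25S from -0.38 to -0.11 and -0.17 to 0.00537; at 20 to 24 nt the last were 0.00493 and 0.0920. The 25 to 27 nt share differed by -6.09 to 0.301 points for members and -0.0774 to 0.0306 for the 3′ end.

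Beside 18S and 25S, with a library left out in turn, the 21 to 24 nt share differed by -24.8 to -21.8 points from 18S and -20.2 to -18.7 from 25S, the end share by 65.6 to 68.3 points, and log2 density by 2.64 to 2.77. Without both replicates 1 these were -24.9, -19.6, 65.6 and 2.70.

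Same-numbered libraries deviated in opposite ways (r from -0.715 to -0.301 across sequences), so numbers did not pair them. With the replicate block 0 members and 7 of all sequences were called, against 1 and 39 without it. Of all sequences, 142 were called with DESeq2, 67 with edgeR, 59 with length division, 24 at a pseudocount of 20, 15 at a mean of at least 20, 98 without both replicates 1, and 11 to 72 with a library left out, with 0 to 1 members.

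Log2 fold changes that changed sign were, without both replicates 1, 0.15 (chr2:5781-5806), 0.0975 (5781-5807), -0.62 (5785-5802), -0.32 (5926-5944), -0.25 (5925-5944) and -0.21 (5507-5525). With length division they were -0.38 (5785-5802), 0.0933 (5785-5811), -0.0480 (5926-5944) and -0.0333 (5925-5944). With median of ratios scaling 5785-5802, 5926-5944 and 5925-5944 gave -0.0793, -0.0748 and -0.15, and with DESeq2 -0.0785, -0.0788 and -0.16. With a library left out, 5785-5802 ranged from -0.16 to 0.81, 5925-5944 from -0.00346 to 0.51, 5781-5806 from -0.82 to -0.11, 5781-5807 from -1.05 to -0.25, 5926-5944 from 0.0292 to 0.62, 5507-5525 from 0.0605 to 1.04 and 5785-5811 from -0.63 to -0.24. The causes were not tested. The 23-nt first-spacer call was lost with the block (adjusted p = 0.889) and without 5 of the 6 single libraries. It held without rdr1 replicate 1, without both replicates 1, with edgeR and DESeq2, and under the other pseudocounts, filters and scalings. It rests on 6 reads in rdr1. The end tolerance does not enter the first spacer.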
